A study of Mus musculus with 42 samples.

Results

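Messenger RNA levels of 8 genes, Ppara, Cpt1a, Ehhadh, Cyp4a10, Cyp4a14, Pdk4, Acot1, and Fgf21, were followed in mouse liver by diet and time of day. They were listed by name as the gene of the fatty acid receptor PPARα and genes that it controls or that serve fat oxidation, and all 8 were found among the 54532 genes of the count table. All 8 averaged 25 counts or more in the liver libraries and so belonged to the 12000 genes over which every diet test was fitted.

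The mice were female C57BL/6NHsd, 3 weeks old when they were put on the AIN93G diet, in which soybean oil supplied 16% of the energy, or on a high-fat diet (HFD), in which it supplied 45%. They were killed after 3 weeks at 7 time labels, zeitgeber time (ZT) 0 to ZT 24 in steps of 4 h, with 3 RNA sequencing libraries per diet and label. The comparison asks how dietary fat and the time of day bear on these transcripts in the liver of young mice.

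Of the 42 libraries, 32 held Alb, the albumin gene of hepatocytes, at 66434 to 111995 CPM (read counts scaled to a common sequencing depth), and in these all 18 hepatocyte markers averaged over 1 CPM. The other 10 held Alb at 18.7 to 81.0 CPM and Adipoq, an adipocyte gene, at 1455 to 2984 CPM, although labelled as liver. These were all AIN93G libraries at ZT 16 and ZT 20 and 2 of the 3 of each diet at ZT 24, and they enter no comparison here. The liver libraries held 14592481 to 19815356 counts each. The diets could thus be compared at ZT 0, 4, 8, and 12 with 3 libraries against 3, and a 24 h course could be followed on the HFD only. Libraries are numbered within a group in the order of their records. In whole liver, fewer cells of a type and less RNA per cell cannot be told apart.

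Clock genes split the libraries that share the label ZT 12. Dbp, a clock output gene, was at 102, 0.361, and 0.127 CPM in the 3 AIN93G libraries and at 62.3, 79.6, and 0.130 CPM in the 3 HFD libraries. Arntl (Bmal1), which runs in antiphase to Dbp, was at 1.14, 42.4, and 46.3 CPM and at 1.76, 0.940, and 38.3 CPM in the same order. The records of these libraries give the phase as dark, light, and dark on AIN93G and as dark, dark, and light on the HFD, again in this order. All libraries at ZT 0 are labelled light and all at ZT 24 dark. In both liver libraries at ZT 24, Dbp was at 155 (AIN93G) and 68.3 CPM (HFD), while it was below 1 CPM in all 6 at ZT 0. The diet means of the members and the cosine fits of Cpt1a, Acot1, and Pdk4 are therefore also given without these libraries, while list medians, spreads, and the cosine fits of other genes include them.

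PPARα is a nuclear receptor of hepatocytes that is activated by fatty acids and, paired with RXR, binds direct repeats in the DNA near its target genes. During fasting and on fat-rich diets it raises genes for fatty acid import into mitochondria, for β-oxidation in mitochondria and peroxisomes, for ω-oxidation in the endoplasmic reticulum, and for ketone body formation. Its targets include the hormone FGF21 and the kinase PDK4, which spares glucose carbon by shutting down pyruvate dehydrogenase.

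Per kilobase of gene length, so that genes could be compared, the ω-hydroxylase genes were the most abundant. Over the 32 liver libraries, Cyp4a14 was at 212 ± 128 CPM per kb (SD) and Cyp4a10 at 180 ± 101, and Cyp4a14 was above Cyp4a10 in 21 libraries. Ehhadh, the bifunctional enzyme of peroxisomal β-oxidation, was at 103 ± 23.2 CPM per kb, and Cpt1a, the carnitine palmitoyltransferase that admits fatty acids to liver mitochondria, was at 97.6 ± 31.7. With these lengths the 2 could not be ordered, since Ehhadh was above Cpt1a in 17 of 32 libraries. Lengths were those of the count table, 4300 bases for Cpt1a, whereas its exons cover 7642 bases in the GENCODE M21 annotation. The level of Cpt1a per kilobase and its order against other members thus depend on the length used. Ppara was at 36.3 ± 11.2 CPM per kb, below Cpt1a and above Acot1 in all 32. Acot1, a cytosolic acyl-CoA thioesterase, was at 11.3 ± 6.46 CPM per kb. Pdk4 (5.34 ± 5.38) and Fgf21 (4.43 ± 3.80) were the least abundant, with Pdk4 above Fgf21 in 16 of 32 libraries. Among relatives, Cpt1b, Cpt1c, Pdk3, Cyp4a12a, Cyp4a12b, Acot5, and Acot6 had mean counts under 25 and were not tested. The 8 members are on mm10 at chr15:85734983-85802819 (Ppara, ENSMUSG00000022383), chr19:3323301-3385732 (Cpt1a, ENSMUSG00000024900), chr16:21761287-21787807 (Ehhadh, ENSMUSG00000022853), chr4:115518264-115533649 (Cyp4a10, ENSMUSG00000066072), chr4:115486200-115496142 (Cyp4a14, ENSMUSG00000028715), chr6:5483351-5496309 (Pdk4, ENSMUSG00000019577), chr12:84009490-84018371 (Acot1, ENSMUSG00000072949), and chr7:45613886-45615490 (Fgf21, ENSMUSG00000030827).

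**Figure D1:**
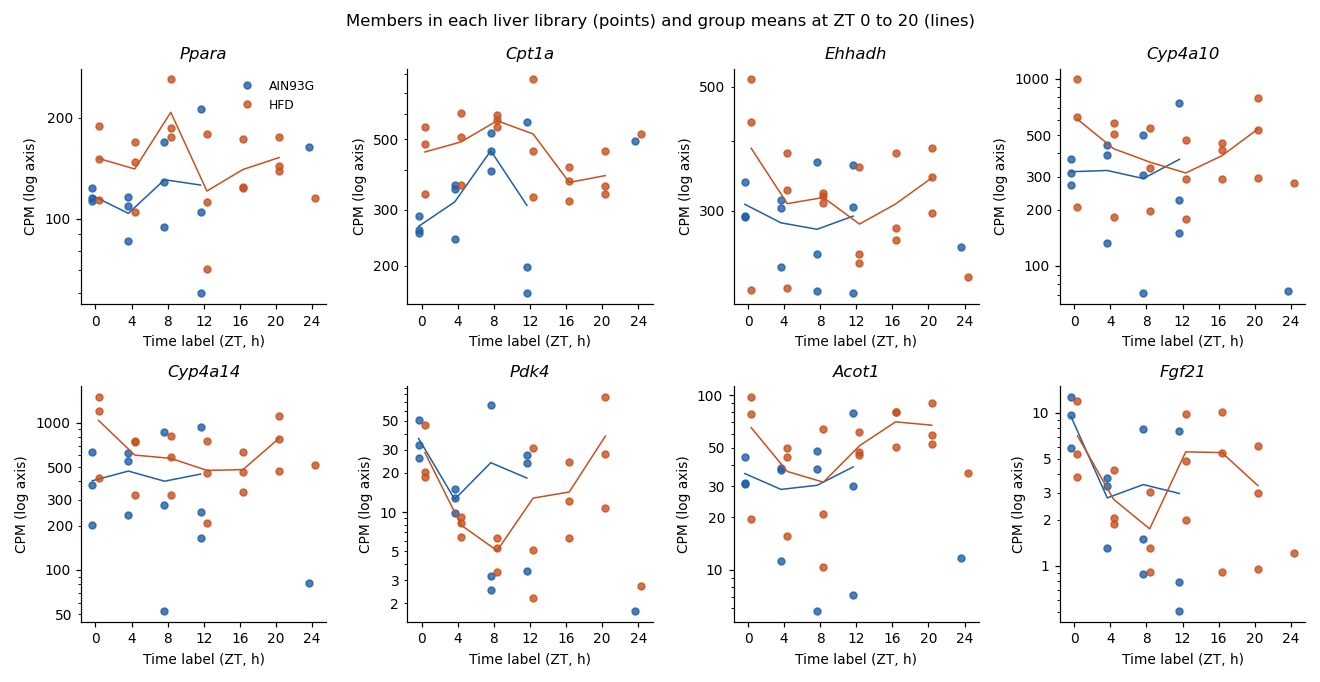
Level of each member in CPM (log axis) against the time label in hours, with 1 point per liver library (13 AIN93G, 19 HFD) and lines through the means of groups of 3. The points of a group spread widely in Cyp4a10, Cyp4a14, Pdk4, Acot1, and Fgf21, and HFD points of Cpt1a lie above AIN93G points at ZT 0, 4, and 8. The AIN93G library at ZT 24 had 0 counts of Fgf21 and is not drawn there.

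Sequences upstream of the start site were taken from RefSeq (GRCm38.p6, the build of mm10) for 6 of the 8 members, and those of Cyp4a10 and Cyp4a14 were not analysed here. None of the 6 windows of 250 bases before the RefSeq start held, on either strand, the direct repeat that the receptor pair binds (DR1). DR1 is 2 copies of AGGTCA with 1 base of any kind between them, and 0.0338% of 32536 such windows held it. The window of Ppara lies inside the gene as located above, with 150 of its 250 bases in annotated exons. Those of Pdk4, Cpt1a, and Acot1 held 31, 16, and 12 such bases, and those of Ehhadh and Fgf21 held 0. The best stretch in each window matched 8 of the 12 fixed letters of DR1, and 74.4% of all windows held a stretch that matched as many or more. The windows of Acot1 and Ehhadh, which varied together from mouse to mouse, and of Cpt1a, the member with the lowest p for diet, are shown with this best stretch in capitals. In Cpt1a the stretch holds the single repeat unit AGGTCA on the opposite strand, which 14% of windows held. The window of Fgf21 is shown with an E-box, CACGTG, in capitals, the motif of clock transcription factors, which 6.04% of windows held. These are matches of letters only and show no binding. Each runs 5′ to 3′ on the strand of its gene.
Acot1, chr12:84009252-84009501, plus strand: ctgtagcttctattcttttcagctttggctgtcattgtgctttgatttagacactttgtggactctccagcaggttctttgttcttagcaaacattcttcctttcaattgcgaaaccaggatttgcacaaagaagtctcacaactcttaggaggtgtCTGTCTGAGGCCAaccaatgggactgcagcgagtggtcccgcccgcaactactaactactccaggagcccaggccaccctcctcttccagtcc
Ehhadh, chr16:21787835-21788084, minus strand: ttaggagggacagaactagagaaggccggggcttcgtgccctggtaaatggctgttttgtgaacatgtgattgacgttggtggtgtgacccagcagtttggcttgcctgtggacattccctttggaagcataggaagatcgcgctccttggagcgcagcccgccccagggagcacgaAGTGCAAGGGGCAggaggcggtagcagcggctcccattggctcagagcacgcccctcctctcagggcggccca
Cpt1a, chr19:3323051-3323300, plus strand: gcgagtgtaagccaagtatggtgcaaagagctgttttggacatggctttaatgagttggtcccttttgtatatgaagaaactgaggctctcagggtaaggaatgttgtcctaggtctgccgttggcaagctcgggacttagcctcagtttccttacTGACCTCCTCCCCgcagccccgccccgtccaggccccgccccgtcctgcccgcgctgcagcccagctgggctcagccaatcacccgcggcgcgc
Fgf21, chr7:45615491-45615740, minus strand: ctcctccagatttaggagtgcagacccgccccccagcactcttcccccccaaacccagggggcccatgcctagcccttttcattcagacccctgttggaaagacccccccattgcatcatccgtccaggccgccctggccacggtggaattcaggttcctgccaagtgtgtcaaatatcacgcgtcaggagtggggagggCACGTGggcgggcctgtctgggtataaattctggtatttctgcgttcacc

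Averaged over ZT 0 to 12, 6 of the 8 members had a higher estimate on the HFD than on AIN93G, with a median log2 difference of 0.35, but no member passed an adjusted p of 0.05. The highest estimates were those of Cpt1a and Cyp4a14, and the lowest that of Pdk4. Of all genes tested, 13 (0.108%) passed, 5 of them higher and 8 lower on the HFD, and the median log2 difference of all genes was -0.0080. With scaling by library size alone 22 passed, 13 of them higher. At an unadjusted p under 0.05, 2 members and 1007 genes (8.39%) were counted. Without ZT 12, where edgeR called 62 genes and Cpt1a among them, the estimate of Ppara went to 0.50 (adjusted p = 0.0811), of Ehhadh to 0.22, of Cyp4a10 to 0.54, of Cyp4a14 to 0.75, of Acot1 to 0.43, of Pdk4 to -1.08, and of Fgf21 to -0.47, with adjusted p from 0.348 to 0.693 for the last 6.

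Cpt1a was the member nearest to the threshold. On AIN93G its level was 253, 287, and 259 CPM at ZT 0, then 349, 243, and 359 at ZT 4, and 522, 459, and 398 at ZT 8. On the HFD it was 337, 547, and 482 CPM at ZT 0, then 507, 360, and 602 at ZT 4, and 547, 572, and 593 at ZT 8. At each of these times every HFD library was above every AIN93G library, as were 6.74% of genes at ZT 0, 3.88% at ZT 4, and 6.52% at ZT 8. At ZT 12 the groups overlapped, with 567, 164, and 198 CPM on AIN93G and 457, 770, and 329 on the HFD. The high AIN93G library is the one that held Dbp at 102 CPM. Over the 4 times, the log2 difference was 0.61 ± 0.16 (SE, 95% interval 0.28 to 0.95, edgeR adjusted p = 0.159, unadjusted p = 0.00098), or 1.53-fold. Without ZT 12 it was 0.58 with an adjusted p of 0.0192, and DESeq2 on all 4 times gave 0.62 with an adjusted p of 0.0256. Leaving out only the first AIN93G library at ZT 12 gave 0.82 and an adjusted p of 0.00149. In that fit 189 genes passed, against 13 with all liver libraries. It kept only AIN93G libraries with low Dbp at ZT 12, against HFD libraries of both kinds, so diet and clock state were not balanced there. Whether Cpt1a passed thus turned on the first AIN93G library at ZT 12 and on the tool, while the estimate was above 0 in each of these fits.

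Ppara itself had a smaller estimate. It was at 116, 113, and 123 CPM on AIN93G at ZT 0 and at 113, 151, and 189 on the HFD. At ZT 4 it was at 116, 85.7, and 109 CPM against 147, 105, and 170, and at ZT 12 at 213, 59.9, and 105 CPM against 112, 179, and 70.8. The groups overlapped at these 3 times. At ZT 8 it was at 169, 94.2, and 128 CPM against 187, 176, and 261, where the groups did not overlap and the log2 difference was 0.67 ± 0.34 (edgeR adjusted p = 0.441). Cpt1a and Ppara were the 2 members whose HFD libraries all lay higher at ZT 8, as did those of 6.52% of all genes tested. Over the 4 times the log2 difference of Ppara was 0.36 ± 0.17 (95% interval 0.010 to 0.70, edgeR adjusted p = 0.573). Of the other PPAR genes, Ppard was at -0.56 ± 0.30 and Pparg at 0.39 ± 0.32, and neither passed (adjusted p = 0.616 and 0.774).

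The ω-hydroxylases Cyp4a10 and Cyp4a14 had estimates above 0 with wide intervals. Cyp4a14 was at 201.9, 632, and 377 CPM on AIN93G and at 423, 1493, and 1194 CPM on the HFD at ZT 0, the time of its largest estimate (log2 difference 1.36 ± 0.73, edgeR adjusted p = 0.999). At ZT 8 it was at 872, 277, and 52.5 CPM on AIN93G and at 814, 584, and 321 on the HFD. The libraries at ZT 4 (624, 238, and 547 CPM against 751, 323, and 735) and at ZT 12 (933, 164, and 247 CPM against 457, 209, and 757) also lay across each other. The groups overlapped at all 4 times. Cyp4a10 was at 271, 313, and 371 CPM against 206, 992, and 623 at ZT 0, and at 393, 133, and 444 CPM against 578, 182, and 508 at ZT 4. It was at 499, 308, and 71.6 CPM against 547, 332, and 196 at ZT 8, and at 737, 150, and 226 CPM against 292, 179, and 470 at ZT 12. Here too the groups overlapped at all 4 times. Over these times the log2 difference was 0.58 ± 0.36 for Cyp4a14 (95% interval -0.16 to 1.32, adjusted p = 0.682) and 0.34 ± 0.32 for Cyp4a10 (-0.32 to 1.00, adjusted p = 0.813). With each library left out in turn, Cyp4a14 went from 0.45 to 0.90 (the latter without the first AIN93G library at ZT 8) and Cyp4a10 from 0.20 (without the second HFD library at ZT 0) to 0.60 (without the first AIN93G library at ZT 12). The relatives Cyp4a31 (0.037 ± 0.28) and Cyp4a32 (0.39 ± 0.25) did not pass either. Of the windows of 50 bases in Cyp4a10 transcripts, 24.5% also occur in Cyp4a32 and 15.0% in Cyp4a31, so reads there could have been split between them or left out. Cyp4a14 shared none with these relatives.

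Ehhadh had the narrowest range. Its 12 AIN93G libraries from ZT 0 to 12 had a lowest, median, and highest level of 214, 299, and 367 CPM, and its 12 HFD libraries of 216, 320, and 516 CPM. The log2 difference was 0.15 ± 0.13 (95% interval -0.12 to 0.42, edgeR adjusted p = 0.799), which bounds a rise at 1.33-fold and a drop at 0.92-fold. Without the second HFD library at ZT 0 the log2 difference was 0.082.

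Acot1 was at 31.3, 44.3, and 31.1 CPM on AIN93G and at 19.6, 97.4, and 78.5 on the HFD at ZT 0. At ZT 8 the AIN93G libraries held 48.0, 37.5, and 5.80 CPM and the HFD libraries 64.0, 20.7, and 10.4. The other times gave 37.3, 11.2, and 38.1 CPM against 44.2, 15.6, and 49.8 at ZT 4 and 79.0, 7.17, and 30.3 CPM against 45.2, 47.2, and 61.5 at ZT 12. The groups overlapped at all 4 times, and the log2 difference over them was 0.42 ± 0.36 (95% interval -0.32 to 1.16, edgeR adjusted p = 0.792). It was 0.17 without the first HFD library at ZT 8 and 0.69 without the first AIN93G library at ZT 12. Its neighbour on chromosome 12, the mitochondrial thioesterase gene Acot2, was at 0.52 ± 0.26 (adjusted p = 0.595), while Acot3 was at -0.060 ± 0.33 and Acot4 at 0.11 ± 0.18. Of the 50-base windows of Acot1 transcripts, 13.6% also occur in Acot2.

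Pdk4 was the member with the lowest estimate on the HFD, and that estimate rested on 1 library. On AIN93G it was at 51.2, 33, and 25.9 CPM at ZT 0, at 12.8, 15.1, and 9.76 at ZT 4, and at 3.25, 66.0, and 2.52 at ZT 8. On the HFD it was at 18.6, 20.4, and 46.8 CPM at ZT 0, at 6.45, 9.23, and 8.18 at ZT 4, and at 6.37, 3.45, and 5.33 at ZT 8. At ZT 12 it was at 3.55, 23.9, and 27.3 CPM against 5.10, 2.17, and 31.1. At ZT 4 every HFD library was below every AIN93G library, as were 3.70% of genes. The log2 difference over the 4 times was -0.95 ± 0.47 (95% interval -1.92 to 0.028, edgeR adjusted p = 0.594). The second AIN93G library at ZT 8, with 66.0 CPM of Pdk4, held 8 skeletal muscle markers at a sum of 2245 CPM, among them Acta1 at 524 CPM and Ckm at 163 CPM. The other 31 liver libraries held them at a sum of 1.76 to 169 CPM. Without this library the difference was -0.18 over the 4 times (adjusted p = 0.954) and went from -2.25 to 0.80 at ZT 8. The part of muscle RNA in this value was not tested. The other kinases of pyruvate dehydrogenase, Pdk1 (-0.37 ± 0.11, adjusted p = 0.209) and Pdk2 (0.13 ± 0.11, adjusted p = 0.794), did not pass.

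**Figure D2:**
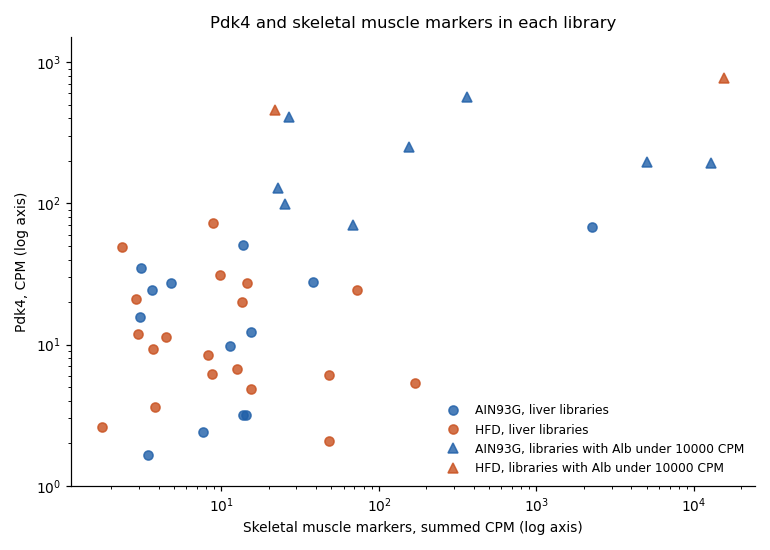
Pdk4 in CPM against the summed CPM of 8 skeletal muscle markers, both on log axes, with 1 point per library for all 42. The AIN93G liver library at 2245 CPM of muscle markers stands apart from the other 31 liver libraries, and the 10 libraries with Alb under 10000 CPM (triangles) hold Pdk4 at 69.9 to 774 CPM at low and at high muscle markers.

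Fgf21, the gene of the liver hormone, was at low counts. It was at 5.93, 12.7, and 9.70 CPM on AIN93G and at 3.81, 5.43, and 12.0 on the HFD at ZT 0. At ZT 4 it was at 3.74, 1.30, and 3.31 CPM against 2.06, 1.88, and 4.24, and at ZT 8 at 7.82, 0.881, and 1.5 CPM against 3.03, 1.30, and 0.907. At ZT 12 it was at 0.507, 0.783, and 7.63 CPM against 2.0, 4.82, and 9.88, and the AIN93G library at ZT 24 had 0 counts, which allows up to 3 counts. The groups overlapped at all 4 times, and the log2 difference over them was -0.13 ± 0.45 (95% interval -1.05 to 0.80, edgeR adjusted p = 0.965). Its sign changed when the first AIN93G library at ZT 8 (0.26) or the third at ZT 12 (0.42) was left out.

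At single times no member passed for diet either. With edgeR, the 12000 genes gave no call (0%) at ZT 0, at ZT 4, and at ZT 12, while unadjusted p-values under 0.05 numbered 484, 301, and 896 and DESeq2 called 13, 0, and 3. At ZT 8, 2 genes (0.0167%) passed. Members whose groups did not overlap, against all genes, were 1 higher at ZT 0 (background 6.74%) and 0 lower (6.52%), 1 higher (3.88%) and 1 lower (3.70%) at ZT 4, 2 higher (6.52%) and 0 lower (6.50%) at ZT 8, and 0 higher (5.05%) and 0 lower (5.16%) at ZT 12. The test of diet by time called no gene with edgeR (0%), where 722 genes had an unadjusted p under 0.05 and DESeq2 called 5. The lowest adjusted p of a member in it was 0.947. No difference in the diet effect between times was thus shown for any member.

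**Figure D3:**
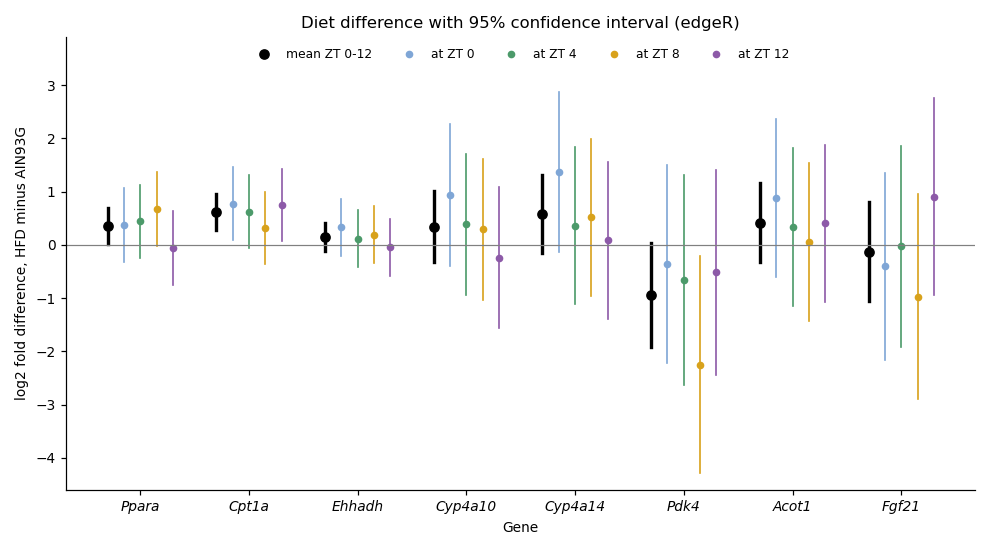
Log2 fold difference, HFD minus AIN93G, of each member with its 95% confidence interval from edgeR, for the mean over ZT 0 to 12 (black, 12 against 12 libraries) and for each time (3 against 3). The interval of the mean excludes 0 in Cpt1a (0.28 to 0.95) and Ppara (0.010 to 0.70) before adjustment over all genes, and the widest intervals are those of Pdk4 and Fgf21.

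Genes of the same pathways were read from lists written by hand, which hold the 8 members too. Of the mitochondrial β-oxidation list, 22 of 24 genes were tested, all 22 had an estimate above 0 (median log2 difference 0.16, from 0.0018 to 0.61), and none passed, with 5 at an unadjusted p under 0.05. Of the peroxisomal list, all 18 genes had an estimate above 0 (median 0.19), none passed, and 5 were under an unadjusted 0.05. For comparison, 47.2% of all tested genes had an estimate above 0. In the ω-oxidation list 11 of 13 tested genes were above 0 (median 0.13) and 3 were under an unadjusted 0.05, in the thioesterase list 7 of 10 (median 0.10) and 0, and in the ketone body list 4 of 7 (median 0.013) and 1. Among the receptors and cofactors 12 of 20 were above 0 (median 0.041), and among 24 tested genes listed as other PPARα targets 18 were (median 0.19). The FGF21 axis (2 of 8 above 0, median -0.13) and the pyruvate dehydrogenase list (3 of 10, median -0.12) lay below 0. No gene of these 9 lists passed, nor did any of 13 clock genes (9 above 0, median 0.43). These counts are for the mean over ZT 0 to 12. At ZT 0, 4, 8, and 12 in turn, 22, 18, 15, and 22 mitochondrial and 17, 16, 14, and 15 peroxisomal genes were above 0. In the ω-oxidation list 11, 9, 8, and 5 of 13 were. Genes of a list were measured in the same libraries, so such counts are not of independent values.

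Beside Cpt1a, and named after their values were seen, the lowest p-values in the 3 oxidation lists were in Aldh3a2, which oxidizes fatty aldehydes (log2 difference 0.52 ± 0.13, edgeR adjusted p = 0.113), Decr2, a peroxisomal dienoyl-CoA reductase (0.38 ± 0.11, adjusted p = 0.194), and Cpt2, the partner of Cpt1a on the inner mitochondrial membrane (0.30 ± 0.089, adjusted p = 0.206). Fat synthesis was the one list with calls for diet. Of its 13 genes, 3 passed and were lower on the HFD, Scd1, the stearoyl-CoA desaturase (log2 difference -1.87 ± 0.36, adjusted p = 0.0303), Acaca, the acetyl-CoA carboxylase (-1.03 ± 0.20, adjusted p = 0.0303), and Pklr, the liver pyruvate kinase (-0.93 ± 0.18, adjusted p = 0.0341), and the list had a median of -0.93.

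The spread between libraries of the same group was large for these genes. The biological coefficient of variation, the spread beyond counting error that edgeR estimates, was 0.75 for Pdk4, 0.728 for Fgf21, 0.59 for Acot1, 0.585 for Cyp4a14, and 0.53 for Cyp4a10, against a median of 0.177 over the 12000 genes. Each of these 5 was above at least 97.7% of genes. Among genes within 1 log2 CPM of its own level, Pdk4 exceeded 99.7% and Acot1 99.5%. Ppara (0.287), Cpt1a (0.282), and Ehhadh (0.228) were above 84.7%, 83.9%, and 71% of genes. In the 10 groups of 3, the highest library of a group exceeded the lowest by over 2-fold in 9 groups for Cyp4a14 and 8 for Cyp4a10, and in 1 for Ehhadh. Within the AIN93G group at ZT 8 the ratio was 16.6 for Cyp4a14 and 8.28 for Acot1. These spreads include the AIN93G library with muscle markers at ZT 8 and the ZT 12 groups that clock genes split. For Pdk4 the ratio was 26.2 in AIN93G at ZT 8, 7.69 in AIN93G at ZT 12, and 14.3 in the HFD at ZT 12. In the remaining groups it went from 1.43 (HFD at ZT 4) to 7.11 (HFD at ZT 20).

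**Figure D4:**
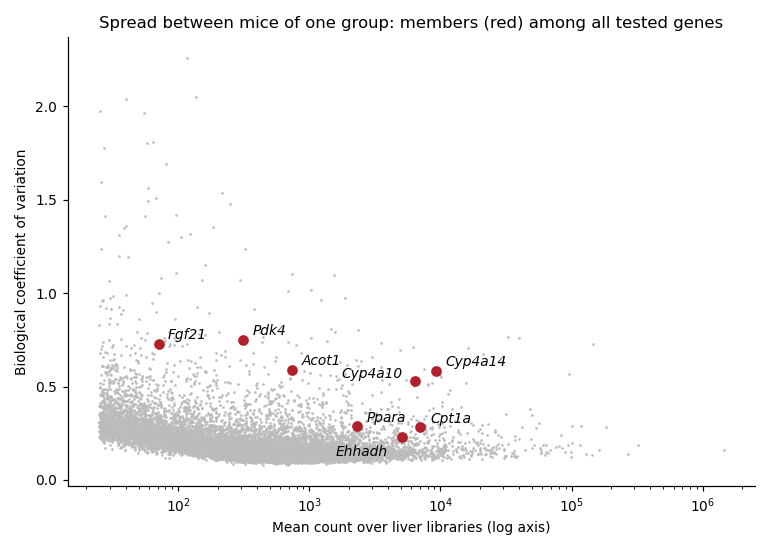
Biological coefficient of variation against the mean count over the liver libraries (log axis), for 12000 tested genes (grey) and the 8 members (red). Pdk4, Fgf21, Acot1, Cyp4a14, and Cyp4a10 lie between 0.53 and 0.75, above most genes of like count, and Ehhadh at 0.228.

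Cyp4a10, Cyp4a14, and Acot1 varied together from mouse to mouse. Each library was set against the mean of its diet and time group on the log2 scale, in 30 libraries of 10 groups, and 28 pairs of members were compared by permuting libraries within groups. After adjustment over the 28 pairs 9 passed, each with r above 0, and the rho of these 9 passed too (permutation adjusted p from 0.000187 to 0.0112). Pairs of other genes were not tested, so the share of all gene pairs that would pass is not known. Cyp4a10 and Cyp4a14 had Pearson's r = 0.938 and Spearman's rho = 0.902, and Cyp4a10 and Acot1, on different chromosomes, had r = 0.924 and rho = 0.911 (permutation p = 1e-05 for each r, the smallest possible, and adjusted p = 9.33e-05). Without the 2 libraries farthest from the median, these r were 0.920 and 0.896. Within diets they were 0.933 and 0.947 on AIN93G (12 libraries) and 0.971 and 0.898 on the HFD (18 libraries). Cyp4a14 and Acot1 gave r = 0.870 and rho = 0.847 (r = 0.847 without the 2 farthest, permutation adjusted p = 9.33e-05).

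The same mice show this in their CPM values. At ZT 8 on AIN93G the order of the 3 libraries was 499, 308, and 71.6 CPM in Cyp4a10, 872, 277, and 52.5 in Cyp4a14, and 48.0, 37.5, and 5.80 in Acot1. At ZT 0 on the HFD it was 206, 992, and 623 CPM in Cyp4a10, 423, 1493, and 1194 in Cyp4a14, and 19.6, 97.4, and 78.5 in Acot1. Over the 10 groups, the library with the lowest level was the same for all 3 genes in 8 groups and for both Cyp4a genes in 10, and that with the highest level in 6 and 8.

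Ehhadh went with these 3 genes. Its r was 0.749 with Cyp4a10 (rho = 0.740, r = 0.695 without the 2 farthest, permutation adjusted p = 0.00302), 0.698 with Acot1 (rho = 0.683, 0.648 without the 2 farthest), and 0.665 with Cyp4a14 (rho = 0.647, 0.639 without the 2 farthest). Ehhadh and Fgf21 had r = 0.555 (rho = 0.620, r = 0.628 without the 2 farthest, permutation adjusted p = 0.0281), while Fgf21 with Cyp4a10 (r = 0.384, adjusted p = 0.216) and with Acot1 (r = 0.412, adjusted p = 0.211) did not pass. Cpt1a and Acot1 had r = 0.605 (rho = 0.618, permutation adjusted p = 0.00924), which fell to 0.432 without the 2 farthest. Cpt1a and Cyp4a10 had r = 0.529 (rho = 0.556), where rho passed (permutation adjusted p = 0.0374) and r did not (0.0572). Without ZT 12, in 24 libraries, r was 0.921 for Cyp4a10 and Cyp4a14, 0.951 for Cyp4a10 and Acot1, and 0.803 for Ehhadh and Cyp4a10. All pairs share the same libraries, so depth and dissection are common to them.

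Ppara varied with Cpt1a. Ppara and Cpt1a had r = 0.851 (rho = 0.718, r = 0.749 without the 2 farthest, permutation adjusted p = 0.00224), which was 0.617 without ZT 12. In the same 24 libraries Cpt1a had r = 0.760 with Ehhadh, 0.742 with Cyp4a10, 0.674 with Acot1, and 0.665 with Cyp4a14. Its r was then 0.374 with Fgf21 and 0.0626 with Pdk4, and none of these was tested by permutation. With Cyp4a10 (r = 0.288, adjusted p = 0.403), Cyp4a14 (r = 0.254, adjusted p = 0.483), and Acot1 (r = 0.413, adjusted p = 0.237) Ppara did not pass by permutation, and the difference between these correlations was not tested. No pair with Pdk4 passed. Its r was 0.125 with Cyp4a10 (permutation adjusted p = 0.833) and -0.608 with Ppara (rho = -0.481, r = -0.551 without the 2 farthest, permutation adjusted p = 0.0569), and the latter was -0.0462 in the 21 libraries left without ZT 12 and without AIN93G at ZT 8.

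**Figure D5:**
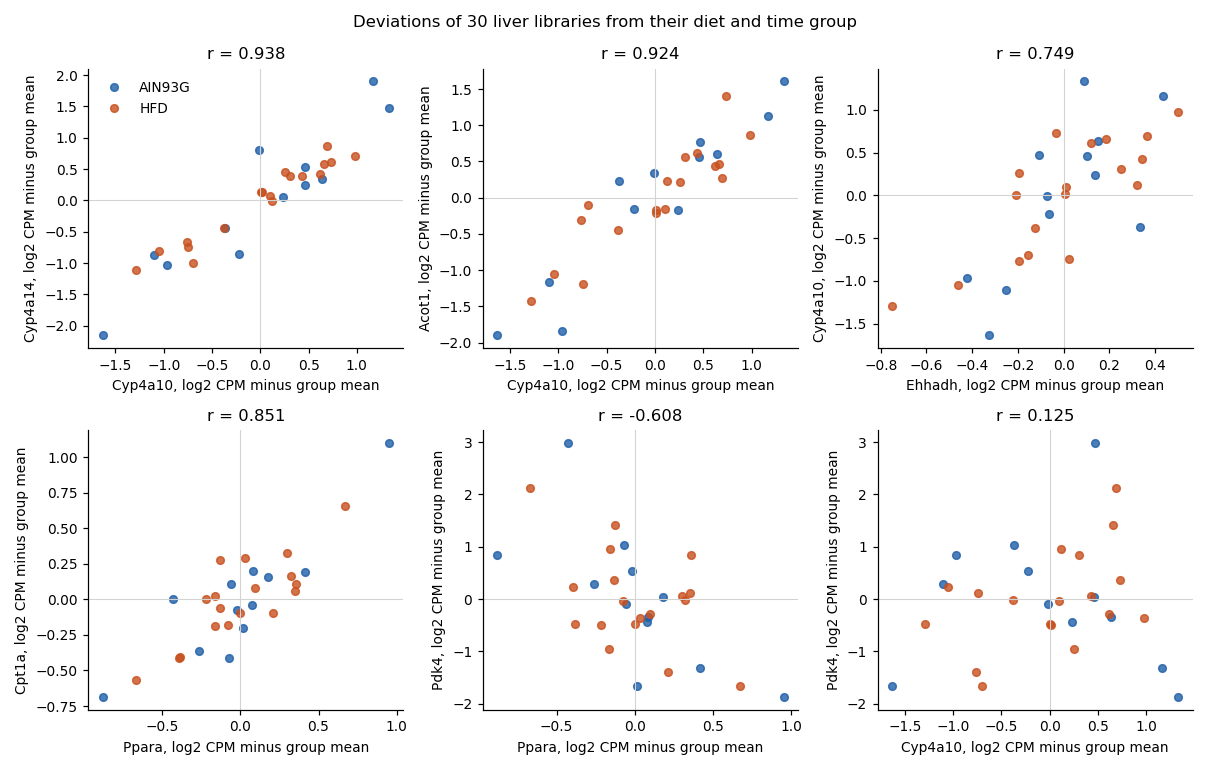
Deviation of 30 liver libraries from the mean of their diet and time group, in log2 CPM, for 6 pairs of members, with blue points for AIN93G and orange points for the HFD. Cyp4a10 lies along a line with Cyp4a14 (r = 0.938) and Acot1 (r = 0.924) and Ppara with Cpt1a (r = 0.851), while Cyp4a10 and Pdk4 (r = 0.125) form no line.

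Among all tested genes, the profiles most like each member over the 32 liver libraries were found by Pearson's r on log2 CPM, given as a description. For Cyp4a10 they were Cyp4a14 (0.94), Retsat (0.91), and Acot1 (0.87), for Cyp4a14 Cyp4a10, Retsat (0.89), and Cyp4a31 (0.84), and for Acot1 Cyp4a10, Retsat (0.83), and Ech1 (0.80). For Cpt1a they were Optn (0.90), Decr2 (0.89), and Slc27a2 (0.88), for Ehhadh Rab30 (0.82), Hsdl2 (0.80), and Cyp4a10 (0.74), and for Ppara Fnip1 (0.83), Ssh2 (0.82), and N4bp2 (0.79). Pdk4 was most like Nid2 (0.81), Lgalsl (0.81), and Desi2 (0.78), and Fgf21 most like Paqr9 (0.80), Elovl5 (0.76), and Cars (0.75).

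Across the day no member passed a test of time with all liver libraries. From ZT 0 to 12 on AIN93G 91 genes (0.758%) passed, from ZT 0 to 20 on the HFD 633 (5.28%), and 367 of 11982 genes (3.06%) followed a 24 h cosine curve on the HFD. The lowest adjusted p of a member was 0.60 on AIN93G (Cpt1a), 0.194 on the HFD (Pdk4), and 0.0981 for the cosine (Pdk4). Leaving out the first AIN93G library at ZT 12 gave Cpt1a an adjusted p of 0.025 for time on AIN93G, in a fit where 280 genes passed.

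Pdk4 had the lowest p for a daily course on the HFD. It was at 18.6, 20.4, and 46.8 CPM at ZT 0 and at 6.37, 3.45, and 5.33 at ZT 8, then at 24.2, 12.2, and 6.33 CPM at ZT 16 and 27.9, 10.7, and 76.2 at ZT 20. Its cosine had an amplitude of 1.11 ± 0.39 log2 units and a peak at ZT 20.4 ± 1.33 h (edgeR adjusted p = 0.0981). At ZT 12 it was at 5.10, 2.17, and 31.1 CPM, and the high library was the one with Dbp at 0.130 CPM. At ZT 24 it was at 2.69 CPM in a library with Dbp at 68.3. Without ZT 12 and ZT 24, a set chosen after seeing the data, the amplitude was 1.41 ± 0.32 with a peak at ZT 21.3 ± 0.82 h (adjusted p = 0.00397). Pdk4 also passed without ZT 12 alone (0.041), without ZT 24 alone (0.0323), and without the third HFD library at ZT 12 (0.0108). In these fits, in this order, 1035, 428, 1023, and 788 genes passed, against 367 with all HFD liver libraries. On AIN93G the low libraries were likewise those with Dbp above 100 CPM, at 3.55 CPM against 23.9 and 27.3 at ZT 12 and 1.74 CPM at ZT 24.

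The cosine of Cpt1a on the HFD had an amplitude of 0.29 ± 0.11 log2 units (edgeR adjusted p = 0.201, and 0.0728 without ZT 12 and ZT 24). Acot1 had an amplitude of 0.73 ± 0.26 (adjusted p = 0.246, and 0.236 without ZT 12 and ZT 24). Its HFD libraries at ZT 16 (80.6, 50.5, and 79.9 CPM) and at ZT 20 (58.8, 52.7, and 90.4 CPM) were mostly above those at ZT 8 (64.0, 20.7, and 10.4 CPM). Those at ZT 0 held 19.6, 97.4, and 78.5 CPM, from below to above the libraries at ZT 16 and ZT 20. The HFD libraries at ZT 4 held 44.2, 15.6, and 49.8 CPM and those at ZT 12 held 45.2, 47.2, and 61.5. For Cyp4a14 the amplitude was 0.44 ± 0.22, for Cyp4a10 0.33 ± 0.23, for Fgf21 0.37 ± 0.40, for Ppara 0.13 ± 0.14, and for Ehhadh 0.091 ± 0.11, and none passed. Peak times of these curves are left out.

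Other genes of the lists passed the cosine test on the time label in the same HFD libraries. Nr1d1 (REV-ERBα) had an amplitude of 2.75 ± 0.22 log2 units with a peak at ZT 6.55 ± 0.29 h (edgeR adjusted p = 1.38e-07), and Cry1 one of 1.49 ± 0.13 with a peak at ZT 18.7 ± 0.31 h. Of 13 clock genes tested 3 passed, while Dbp (amplitude 2.40 ± 0.80, adjusted p = 0.0726) and Arntl (1.87 ± 0.53, adjusted p = 0.117) did not. A gene with a large daily swing could thus miss the threshold in this fit. Pdk1 peaked at ZT 15.3 ± 0.68 h (amplitude 0.49, adjusted p = 0.0112), and this peak was not tested against that of Pdk4. The thioesterase genes Acot7 (ZT 14.2, adjusted p = 0.0151) and Acot13 (ZT 13.2, adjusted p = 0.0419) and the fat synthesis genes Acacb (ZT 15.9, adjusted p = 0.00887) and Pnpla3 (ZT 15.6, adjusted p = 0.00899) peaked in the dark phase. Bdh1, which makes β-hydroxybutyrate from acetoacetate, peaked at ZT 6.77 ± 0.73 h (adjusted p = 0.0245), and Krt23, a gene listed among PPARα targets, at ZT 5.36 ± 0.75 h with an amplitude of 1.08 (adjusted p = 0.0151). Nrip1, a corepressor (ZT 20.6, adjusted p = 0.0328), Acsl3 (ZT 18.5, adjusted p = 0.0393), Atf4 (ZT 17.6, adjusted p = 0.0323), and Fgfr2 (ZT 2.45, adjusted p = 0.0232) also passed.

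Ppard, the sister receptor gene, changed with time on AIN93G (adjusted p = 0.0391, edgeR), where Nr1d1 (0.000382) and Cry1 (0.0144) did too. It was at 72.8, 54.1, and 73.4 CPM at ZT 0, at 5.97, 7.40, and 7.30 at ZT 8, and at 8.05, 92.5, and 71.5 at ZT 12, where the low library was the one with Dbp at 102 CPM. On the HFD it was at 70.6, 47.4, and 45.0 CPM at ZT 0 and 8.72, 6.85, and 9.07 at ZT 8, with an adjusted p of 0.0165 for time and of 0.0668 for the cosine. The values of Ppard and Pdk4 were thus both higher at ZT 0 than at ZT 8 on either diet, leaving aside the AIN93G library with muscle markers. Unlike Ppard, Pdk4 did not pass for time on AIN93G, with an edgeR adjusted p of 0.849, and of 0.335 without that library.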

How the data were processed

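RNA labelled as liver, from 42 samples of female mice, was sequenced as paired-end poly(A) libraries (NEBNext Ultra kit). The authors deposited 1 table of raw read counts per gene, without normalization. The submitters' processing notes name fastp, STAR, HTSeq 0.6.1, DESeq, and STAR-Fusion and the build mm10. The strand setting and the counting of reads of near-identical genes are not given in the sources used here. Diet and time were taken from each record. The 8 genes, the pathway lists, and the tests were chosen with earlier results of these data known.

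Libraries with Alb over 10000 CPM were taken as liver. Genes averaging 25 counts or more were fitted in R 4.3.3 with edgeR 4.0.16 (TMM, quasi-likelihood F-test, a mean for each diet and time group, adjusted p under 0.05 after Benjamini-Hochberg). Where no tool is named beside an adjusted p for a gene, it is edgeR's. CPM values were scaled by TMM, except where a library is described by Alb, Adipoq, or marker sums and where Pdk4 and other members are set beside these, which used its total. The Cosinor fit used a 24 h period, with amplitude and peak from log2 CPM (prior count 2). No exon of a member overlapped an exon of another gene (GENCODE M21). Tests were checked on simulated data. Pairs of members were tested with 100000 permutations within groups. Replicate numbers follow record order, p-values measure the spread between samples of a group, which may be technical in part, and the floor of 3 counts covers counting error only.

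Named genes were the 8 members, 16 close relatives, and from each of 11 lists up to 3 genes that passed for diet and up to 2 each that passed for the cosine and for time on AIN93G, and for each member the 3 genes most like it. Alternatives were DESeq2 1.42.0, limma 3.58.1 for the cosine, other scalings and filters, other sets of time points, and each library left out. Replicates of a group differed by more than counting error (chi-square per degree of freedom at least 16.0 in 30 pairs).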

Additional observations from a re-analysis of the deposited data

Results flagged for a closer look

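Pdk4 stood out in libraries that enter no comparison. In the 10 libraries labelled liver with Alb under 10000 CPM, its median was 223.7 CPM, from 69.9 to 774, and each of the 10 was above the 13 AIN93G liver libraries (1.66 to 67.5 CPM). Of these 10 libraries 8 were AIN93G and 2 HFD. Over all 32 liver libraries Pdk4 reached 72.9 CPM, above the lowest of the 10. The same 10 libraries held Cyp4a10 at 0 to 0.592 CPM and Cyp4a14 at 0 to 0.651 CPM, against at least 68.6 and 50.3 CPM in AIN93G liver libraries, and adipocyte markers at a sum of 23784 to 35831 CPM.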

How the results depend on the processing

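Of 1503 member values under alternatives, 1458 kept their call and, for diet differences, their direction. Another 28 changed sign without a call, and 17 passed anew, 5 of these with 1 library left out. No member was called in the main fits, so a kept call means that the member still did not pass. The tests of diet by time, of time, and of the cosine have no direction. Genes called for the mean diet difference (13) went to 22 with library size scaling, 83 with DESeq2, 62 without ZT 12, 48 with ZT 0, 4, and 8 less the library with muscle markers (chosen after seeing the data), and 1 with all libraries in the fit. Over all 7 times and all libraries as labelled they went to 5586, with 6 members called, where 8 of 9 AIN93G and 2 of 9 HFD libraries at ZT 16 to 24 had Alb under 10000 CPM. Cpt1a alone was called (1 member) with DESeq2, without ZT 12, and with ZT 0, 4, and 8 less the muscle library. Diet at ZT 0 went from 0 to 13 with DESeq2 and 9 with its 6 libraries alone. Diet at ZT 8 went from 2 to 30 with DESeq2, 1 with a count of 25 in total, 0 with its 6 libraries alone, and 0 with all libraries. DESeq2 called 3 at ZT 12 and 5 for diet by time. Time on AIN93G went from 91 to 17 with 25 counts in every library, 434 without ZT 12, 278 with DESeq2, and 1 with all libraries. Time on the HFD went from 633 to 1035, 1717, and 65 under the last 3 of these. The cosine went from 367 to 872 with DESeq2, 18 with all libraries, 1023 without ZT 24, and 1035 without ZT 12 and ZT 24 (chosen after seeing the data), and Pdk4 (1 member) passed without ZT 12, ZT 24, or both. The cause was not tested, other than fewer libraries or genes by construction.

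Leaving out each library in turn moved the genes called to 5 to 189 (mean diet difference, 5 without the first AIN93G library at ZT 0), 0 to 37 (ZT 8, the second AIN93G and the second HFD library), 0 at ZT 0 and ZT 4, 0 to 96 (ZT 12), 0 to 2 (diet by time), 12 to 280 (time on AIN93G, 12 without the library with muscle markers), 309 to 1163 (time on the HFD, the third library at ZT 8 and at ZT 12), and 134 to 1023 (cosine, the second library at ZT 8 and that at ZT 24). The first AIN93G library at ZT 12 gave 189, 96, and 280. Members called moved from 0 to 1 for the mean, ZT 12, time on AIN93G (Cpt1a, without the first AIN93G library at ZT 12), and the cosine (Pdk4). A lone library left in a group was assumed to vary like the others. No paired analysis was possible because no replicate number is given and no leading number of a title occurs in both diets. Within a diet some leading numbers recur at other times, their meaning is not given, and no fit with them was run. Low counts of Fgf21 limit its estimates.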
